A study of Homo sapiens with 12 samples.

Results

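The G1 cyclins, cyclin-dependent kinases (CDKs) and CDK inhibitors comprised the 10 genes CCND1, CCND2, CCND3, CCNE1, CDK4, CDK6, CDKN1A, CDKN1B, CDKN1C and CDKN2B, taken by name out of the 34599 gene names in the expression table. They were read by 18 probes, and each probe is followed here by its number because different probes of 1 gene can differ. RNA came from MIA PaCa-2 and Capan-1, human cell lines derived from pancreatic ductal adenocarcinoma (PDAC), and was hybridised to Illumina HumanHT-12 v4 arrays. Each line carried a doxycycline-inducible hairpin in a PLKO.1 tet-on vector with puromycin resistance. The hairpin was a scrambled control (shCtrl) or 1 of 2 hairpins, sh1209 and sh1319, against focal adhesion kinase (FAK, encoded by PTK2). The label of the latter reads shFAK1319 in Capan-1. All 6 groups shared the vector and the selection, with puromycin at 3.5 ug/ml (MIA PaCa-2) or 1.5 ug/ml (Capan-1), and FAK knockdown was induced by 50 ng/ml doxycycline for 96 hours. There were 2 arrays in each group and 12 in all, on 1 chip. The study's design text calls the samples duplicated without naming separate cultures or clones, so p-values measure only the spread between these arrays, which may be technical.

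Entry into the cell cycle runs through these genes. D-type cyclins bind CDK4 and CDK6 and phosphorylate the retinoblastoma protein, which releases E2F transcription factors, and cyclin E with CDK2 then completes the step into S phase. CIP/KIP inhibitors (p21, p27 and p57, from CDKN1A, CDKN1B and CDKN1C) bind cyclin-CDK complexes, whereas INK4 inhibitors such as p15 (CDKN2B) bind CDK4 and CDK6 alone. FAK signals from integrins, and adhesion is known to feed into cyclin D levels in many cell types.

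The knockdown was checked at PTK2 probe 450253, whose signal in MIA PaCa-2 was 21.1% (sh1209) and 17.9% (sh1319) of the shCtrl signal. In Capan-1 it was 65.4% and 29.2% (adjusted p at most 0.0036). PTK2 probe 2680750 passed in none of these 4 pairs. Array medians ranged from 87.7 to 97.0 intensity units, and 16259 to 19814 probes were detected (detection p under 0.05). Of the markers of PDAC lines, Capan-1 had KRT19, EPCAM and CDH1 high, whereas MIA PaCa-2 had CDH1 at background on all its arrays and VIM high. Other markers did not split the lines in this way. With shCtrl, KRT8 had a mean of 10.67 (MIA PaCa-2) against 10.92 (Capan-1). KRT18 had 7.29 against 7.50 at probe 110431 and 5.75 against 5.02 at probe 6280128, in the same order. CDH2, a mesenchymal cadherin, was above background on all Capan-1 arrays and on no MIA PaCa-2 array. KRT19 went from a mean of 6.03 with shCtrl to 4.60 and 4.56 with sh1209 and sh1319 in MIA PaCa-2. CDH2 went from 5.93 to 6.68 and 7.22 in Capan-1, in the same order. Of 8 genes that mark other cell types, CDH5, PDGFRB, CPA1 and INS were above background on no array, PTPRC and DCN on 1 array each, PECAM1 on 7 and the acinar gene PRSS1 on all 6 of Capan-1. The part of these levels in the results on the members was not tested. Where arrays were scaled by their medians instead of quantile-normalized, the share of all calls that were higher moved from 50.3% to 66.6% in MIA PaCa-2 with sh1319 and from 50.2% to 50.9% with sh1209. In Capan-1 it moved from 48.4% to 81.7% for sh1209 and from 50.6% to 85.3% for sh1319. No member called in a comparison changed its sign with that scaling.

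Levels below are log2 intensities after background correction and quantile normalization, and a log2 difference of 1 is a doubling. An offset of 16 was added, so that the changes of dim probes are understated. A probe was called where limma's adjusted p was under 0.05 over all 24207 probes tested, those detected on at least 2 of the 12 arrays. Of the 18 member probes 15 were tested, at least 1 for each gene, and 10 were detected on all 12 arrays. CDKN1A 5290475 and CDKN2B 620487 and 1500338 were not tested. Groups of 2 arrays also failed to overlap at probes not called, such as CDKN2B 7610735 with sh1319 in MIA PaCa-2. How many of all tested probes did so was not counted, so statements on overlap below only describe the values. RNA was taken from whole cultures, so fewer cells that express a gene and less of its RNA per cell cannot be told apart.

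In MIA PaCa-2, CCND2 (at probe 3460520), CDK6 and CCND3 passed with both hairpins, each set against the same shCtrl arrays. CCND2 rose and the other two fell. CCNE1 fell there at 3 of its 4 probes with sh1209 and at 1 with sh1319. In Capan-1, CCND1 rose and CCNE1 fell with both, CCNE1 at 1 of its probes, and CDK6 and CCND2 passed with neither. CDKN1A fell with sh1209 in MIA PaCa-2 and rose with the same hairpin in Capan-1. The members were chosen with earlier results of these data known, so their counts beside the shares of all probes are descriptions and no test. With sh1209 in MIA PaCa-2, 8 of the 15 probes were called, 2 higher and 6 lower, and they stood for 6 genes. Of all tested probes 18.0% were called there (9.05% higher and 8.99% lower). With sh1319, 6 probes of 5 genes were called, 2 probes higher and 4 lower, against 24.3% of all probes (12.2% higher and 12.1% lower). In Capan-1, 4 were called with sh1209, 2 in each direction, against 16.8% (8.14% higher and 8.69% lower). With sh1319 there were 2, 1 in each direction, against 13.7% (6.95% higher and 6.77% lower), which is near the share of all probes. CCND2 3460520 was detected only with the FAK hairpins in MIA PaCa-2 and so could be tested only because it was high there. The plain unpaired test named in the study's methods, adjusted in the same way, called none of these members in any of the 4 pairs, against 7, 5, 5 and 8 at an unadjusted p under 0.05. Over all tested probes it called 1, 4, 0 and 0 in the same order.

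**Figure D1:**
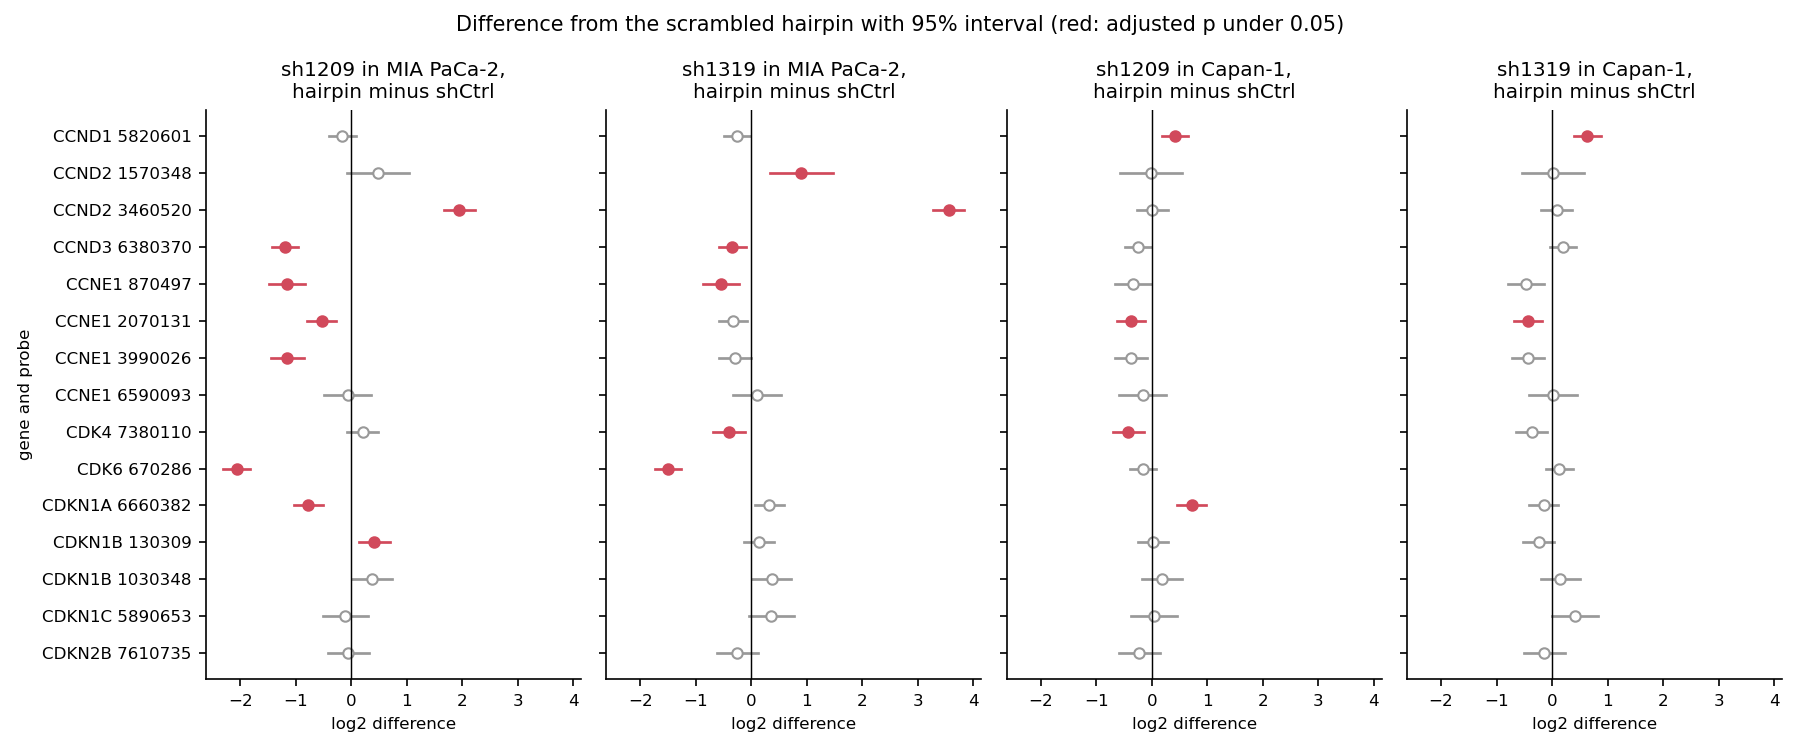
Log2 difference of each of the 15 tested member probes from the shCtrl arrays of its own cell line (x axis), with its 95% interval, in 4 panels for the 4 pairs. Red filled points are past the threshold: CCND2 3460520 lies far to the right and CDK6 to the left in both MIA PaCa-2 panels, and both intervals span 0 in Capan-1.

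Stretches before a transcription start are shown for CDK6, CCNE1 and CCND3, which fell with each hairpin at 1 or more probes in MIA PaCa-2. That of CDKN1A, whose direction depended on hairpin and cell line, is shown beside them. RefSeq's promoter table for GRCh38.p14 held 10 windows for 7 of the 10 genes. CCND1, CCND2 and CDKN1C had no entry. Each line gives the 250 bases before a transcription start, 5′ to 3′ on the gene's strand, with capitals for the GC box (GGGCGG or its complement CCGCCC), the letters that SP1-type factors are known to bind. For CDK6 and CCND3, which have several windows, the window farthest upstream is shown. The windows of CCND3 and CDKN1A lie inside the spans of these genes, chr6:41934933-42050035 and chr6:36676463-36687332, so neither shows the gene's outermost start.
CDK6, chr7:92836574-92836823, minus strand: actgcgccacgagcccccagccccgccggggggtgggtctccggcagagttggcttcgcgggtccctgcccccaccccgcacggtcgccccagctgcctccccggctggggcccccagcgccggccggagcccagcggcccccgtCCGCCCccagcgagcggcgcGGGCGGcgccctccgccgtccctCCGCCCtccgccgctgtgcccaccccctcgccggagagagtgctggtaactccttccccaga
CCNE1, chr19:29811741-29811990, plus strand: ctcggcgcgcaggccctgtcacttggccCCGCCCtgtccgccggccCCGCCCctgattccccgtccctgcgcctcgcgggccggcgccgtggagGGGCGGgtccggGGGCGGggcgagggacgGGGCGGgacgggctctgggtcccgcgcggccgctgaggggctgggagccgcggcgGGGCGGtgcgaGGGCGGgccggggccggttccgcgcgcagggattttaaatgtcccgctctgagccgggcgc
CCND3, chr6:42048689-42048938, minus strand: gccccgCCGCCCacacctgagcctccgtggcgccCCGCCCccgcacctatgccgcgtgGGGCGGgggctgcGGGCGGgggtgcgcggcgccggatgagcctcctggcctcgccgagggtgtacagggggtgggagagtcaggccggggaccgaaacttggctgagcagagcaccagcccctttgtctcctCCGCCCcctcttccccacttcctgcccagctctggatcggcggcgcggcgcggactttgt
CDKN1A, chr6:36678464-36678713, plus strand: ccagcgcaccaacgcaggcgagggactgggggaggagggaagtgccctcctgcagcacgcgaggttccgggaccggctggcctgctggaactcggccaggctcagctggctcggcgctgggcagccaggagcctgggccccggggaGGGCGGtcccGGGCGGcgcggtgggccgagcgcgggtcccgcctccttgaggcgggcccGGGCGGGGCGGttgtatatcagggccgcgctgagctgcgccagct
Counted on both strands and with overlapping matches kept, the GC box occurred 3 times in the window of CDK6 and 7 times in that of CCNE1. It occurred 5 times in that of CCND3 and 4 times in that of CDKN1A. It was found in 8 of the 10 member windows and in 42.6% of the 35116 windows of that length in the table. The E2F letters TTTCCCGC, TTTGGCGC, TTTCGCGC and TTTGCCGC, searched on both strands, were in 2.79% of all windows and in 0 of the 10. The E-box CACGTG was in 6.34% of all windows and, among members, in that of CDK4, with 3 matches. Matches are descriptions of these letters only, and no binding was measured.

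Among the D-type cyclins, which carry growth signals to CDK4 and CDK6, CCND2 had the largest rise of any member in MIA PaCa-2. CCND2 3460520 read 4.18 and 4.39 with shCtrl, 6.18 and 6.29 with sh1209 and 7.73 and 7.95 with sh1319. The shCtrl arrays were not above background, all 4 FAK hairpin arrays were, and the 3 groups did not overlap. Against the lowest detected signal the rise was at least 2.88-fold for sh1209 and at least 8.77-fold for sh1319. The fitted log2 differences were 1.95 (SE 0.13, adjusted p = 1.2e-06) and 3.56 (SE 0.13, adjusted p = 6.8e-09). The probe met the filter only through the FAK hairpin groups where it was high, so these p-values depend on that selection. So do those of this probe in all comparisons below, and each count of called members that includes it. Without background correction the differences were 0.79 and 1.82 and still passed. In Capan-1 this probe lay between 4.16 and 4.35 on the 6 arrays and was above background on none. CCND2 1570348 was dimmer, at 4.90 and 4.39 with shCtrl, 5.36 and 4.90 with sh1209 and 5.15 and 5.93 with sh1319 in MIA PaCa-2. It rose with sh1319 by 0.90 (SE 0.26, adjusted p = 0.023), a call lost with no filter, with 1 cell line in the fit and without replicate 2 of shCtrl or of sh1319 (0.51 to 0.65), and with sh1209 it differed by 0.49 (adjusted p = 0.24).

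CCND3, the cyclin D of chromosome 6, read 9.90 and 9.80 with shCtrl, 8.68 and 8.63 with sh1209 and 9.57 and 9.44 with sh1319 in MIA PaCa-2 (probe 6380370). Both FAK hairpin groups lay below shCtrl, and sh1209 lay lowest. It fell by 1.19 with sh1209, to 0.438 of the shCtrl level (SE 0.11, adjusted p = 1.7e-05), and by 0.34 with sh1319 (adjusted p = 0.038). The latter call was lost with median scaling (-0.21, adjusted p = 0.63), with array weights, with 1 cell line in the fit (adjusted p = 0.051 and 0.088), and without any 1 of the shCtrl or sh1319 arrays of MIA PaCa-2 or of the shCtrl arrays of Capan-1 (-0.41 to -0.28). In Capan-1 the levels were 10.60 and 10.56 with shCtrl, 10.38 and 10.31 with sh1209 and 10.78 and 10.78 with sh1319. The hairpins moved to opposite sides of shCtrl there, by -0.24 (adjusted p = 0.17) and 0.20 (adjusted p = 0.30), and neither passed.

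CCND1, the cyclin D most often amplified in tumours, was bright on all 12 arrays (probe 5820601). In Capan-1 it read 10.69 and 10.64 with shCtrl, 11.03 and 11.14 with sh1209 and 11.29 and 11.32 with sh1319, so that the groups did not overlap. It rose 1.33-fold with sh1209 (log2 difference 0.41, SE 0.11, adjusted p = 0.022) and 1.56-fold with sh1319 (0.64, SE 0.11, adjusted p = 0.0025). The rise with sh1209 was lost without any 1 of the 4 arrays compared (0.36 to 0.47) and with median scaling (adjusted p = 0.14). In MIA PaCa-2 the levels were 10.42 and 10.34 with shCtrl, 10.27 and 10.18 with sh1209 and 10.14 and 10.10 with sh1319. These differences, -0.16 and -0.26, did not pass (adjusted p = 0.38 and 0.11). The order of the 6 group means ran from Capan-1 sh1319 down to MIA PaCa-2 sh1319, and neighbours differed between Capan-1 sh1209 and shCtrl and between the shCtrl groups of the lines (adjusted p = 0.04997).

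**Figure D2:**
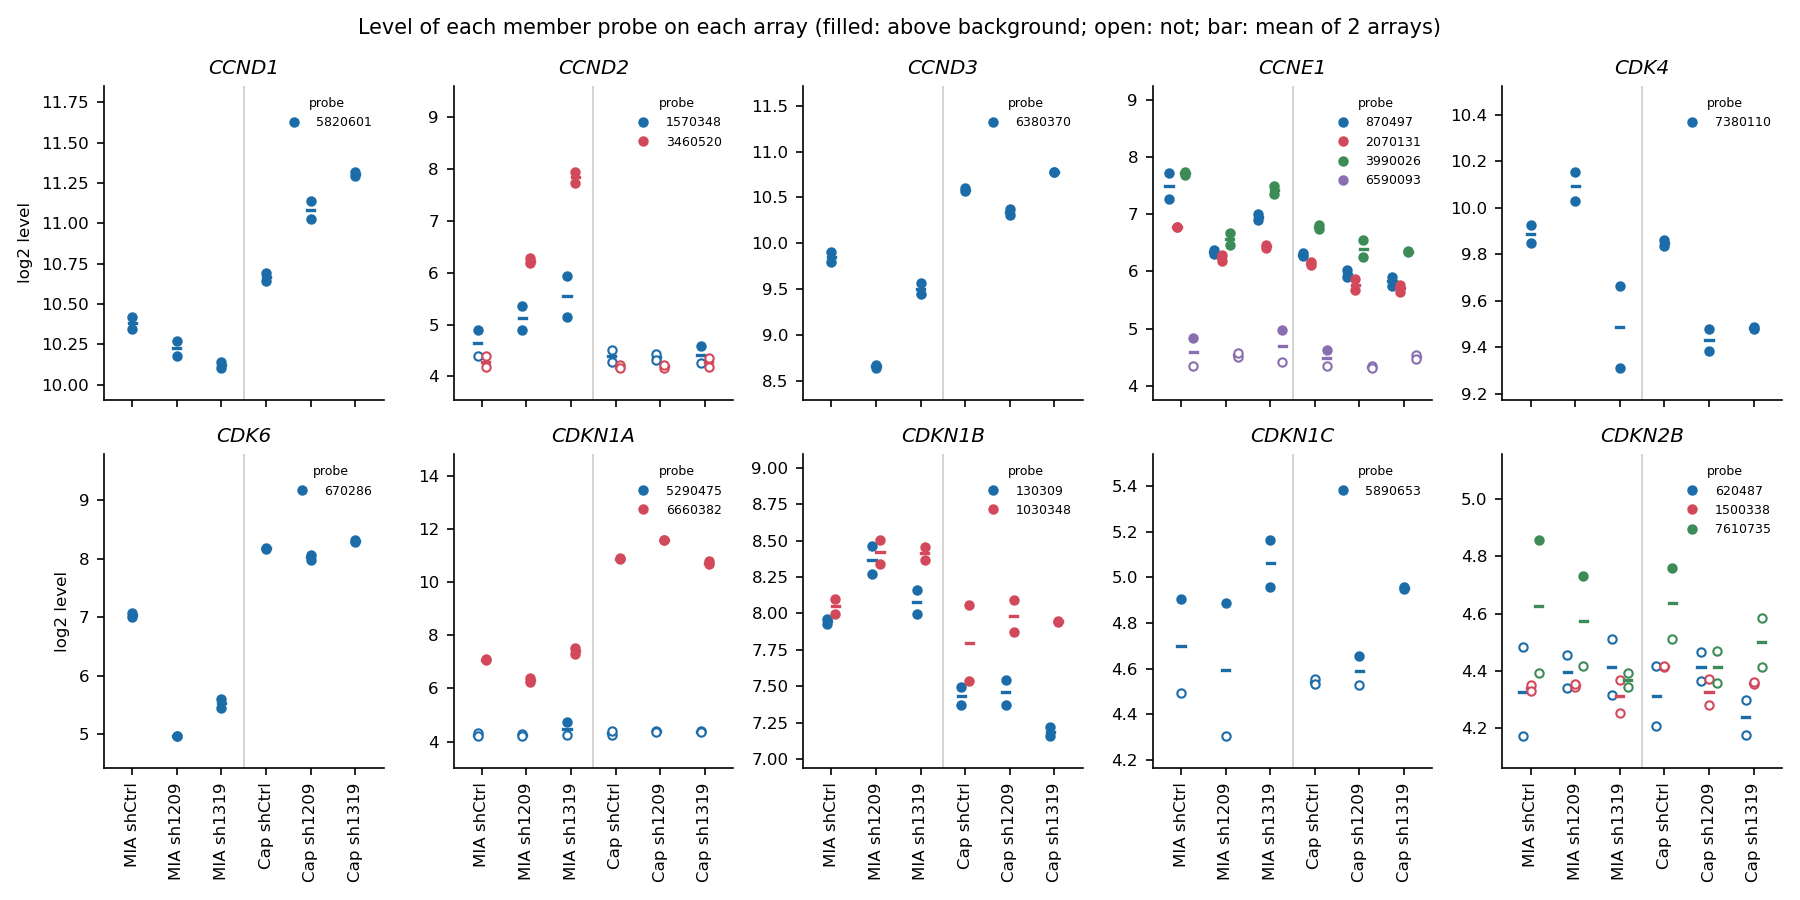
Log2 level (y axis) of all 18 member probes on each of the 12 arrays, by group (x axis; MIA is MIA PaCa-2 and Cap is Capan-1), with 1 panel per gene and its own scale, filled points where the probe was above background and bars at the mean of 2 arrays. CCND2 3460520 leaves the background in MIA PaCa-2 with both FAK hairpins, and CDKN1A 6660382 lies above 10.6 in all Capan-1 arrays and below 7.6 in all MIA PaCa-2 arrays.

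Cyclin E1, the partner of CDK2 that is itself an E2F target, has 4 probes, of which 3 were detected on all arrays. In MIA PaCa-2, CCNE1 870497 read 7.72 and 7.26 with shCtrl, 6.38 and 6.31 with sh1209 and 6.89 and 6.99 with sh1319. CCNE1 3990026 read 7.74 and 7.69, 6.46 and 6.67, and 7.49 and 7.35 in the same order. CCNE1 2070131 read 6.77 and 6.77, 6.29 and 6.18, and 6.46 and 6.42. At all 3 probes both FAK hairpin groups lay below shCtrl without overlap, and sh1209 lay lowest. With sh1209 the 3 fell by 1.15 (probe 870497, adjusted p = 0.00025), 1.15 (probe 3990026, adjusted p = 0.00012) and 0.53 (probe 2070131, adjusted p = 0.0078). The last of these was lost without sh1209 replicate 2 (-0.48) and with median scaling. Without background correction the 3 differences were -0.72, -0.75 and -0.30 in the same order and still passed. With sh1319 CCNE1 870497 passed (-0.55, adjusted p = 0.018), though not with median scaling, with 1 cell line in the fit or without replicate 1 of shCtrl or of sh1319 (-0.50 to -0.32), while 2070131 (-0.33, adjusted p = 0.060) and 3990026 (-0.29, adjusted p = 0.14) did not.

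In Capan-1, CCNE1 2070131 read 6.17 and 6.10 with shCtrl, 5.87 and 5.67 with sh1209 and 5.76 and 5.64 with sh1319. Both hairpin groups were lower than shCtrl, and they overlapped each other. It fell by 0.37 with sh1209 (adjusted p = 0.049), a call lost without any 1 of the 12 arrays (-0.47 to -0.27), and by 0.44 with sh1319 (adjusted p = 0.028), lost without any 1 of the 4 arrays compared (-0.50 to -0.37). With median scaling these differences were -0.13 and -0.18 and did not pass. CCNE1 870497 and 3990026 differed from shCtrl by -0.47 to -0.33 in Capan-1, with adjusted p of 0.052 to 0.17. Over both hairpins and both lines, the fall was 0.63 at 870497, 0.56 at 3990026 and 0.42 at 2070131 (adjusted p at most 0.0012). CCNE1 6590093 lay at 4.31 to 4.98, was above background on 3 of the 12 arrays and passed in no comparison.

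Of the kinases that D-type cyclins activate, CDK6 fell most. In MIA PaCa-2, CDK6 670286 read 7.00 and 7.07 with shCtrl, 4.97 and 4.98 with sh1209 and 5.46 and 5.61 with sh1319. The 3 groups did not overlap, and all arrays were above background. The level with sh1209 was 23.9% of that with shCtrl (log2 difference -2.06, SE 0.11, adjusted p = 2.1e-07) and that with sh1319 was 35.2% (-1.50, SE 0.11, adjusted p = 1.8e-06). Without background correction the log2 differences were -0.98 and -0.78 and still passed. In Capan-1 it read 8.19 and 8.17 with shCtrl, 7.97 and 8.07 with sh1209 and 8.29 and 8.33 with sh1319. The sh1209 arrays were lower and the sh1319 arrays higher than shCtrl, with differences of -0.16 (95% interval -0.40 to 0.09) and 0.13 (95% interval -0.11 to 0.37) that did not pass. CDK6 spans chr7:92604921-92836573 on GRCh38.p14.

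CDK4, which shares substrates with CDK6, was less changed. In MIA PaCa-2, CDK4 7380110 read 9.85 and 9.92 with shCtrl, 10.16 and 10.03 with sh1209 and 9.31 and 9.66 with sh1319. The sh1209 arrays lay above shCtrl and the sh1319 arrays below. CDK4 fell with sh1319 by 0.40 (adjusted p = 0.045) and differed with sh1209 by 0.21 (adjusted p = 0.33). In Capan-1 it read 9.84 and 9.86, 9.38 and 9.48, and 9.49 and 9.48, and the difference was -0.42 with sh1209 (adjusted p = 0.049) and -0.37 with sh1319 (adjusted p = 0.090). Both calls were lost without most arrays: the one in MIA PaCa-2 without each of 11 of the 12, all but sh1319 replicate 2 of that line (-0.44 to -0.22), and the one in Capan-1 without each of 10, all but the sh1319 arrays of MIA PaCa-2 (-0.47 to -0.37). With median scaling the differences were -0.29 and -0.23 and did not pass, and with the replicate block the latter had an adjusted p of 0.055.

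CDKN1A encodes p21, the CDK inhibitor that p53 is known to induce. CDKN1A 6660382 read 7.06 and 7.10 with shCtrl, 6.39 and 6.24 with sh1209 and 7.52 and 7.28 with sh1319 in MIA PaCa-2. The sh1209 arrays lay below shCtrl and the sh1319 arrays above it. In Capan-1 it read 10.90 and 10.86 with shCtrl, 11.60 and 11.60 with sh1209 and 10.79 and 10.67 with sh1319. There the order was turned, with sh1209 above shCtrl and sh1319 below. CDKN1A fell with sh1209 in MIA PaCa-2 by 0.77 (SE 0.12, adjusted p = 0.001) and rose with it in Capan-1 by 0.72 (SE 0.12, adjusted p = 0.0018). The fall was 0.45 without background correction and still passed. With sh1319 the differences were 0.32 in MIA PaCa-2 (adjusted p = 0.078) and -0.15 in Capan-1 (adjusted p = 0.51), and the mean over all 4 pairs was 0.03 (95% interval -0.13 to 0.19). In the same Capan-1 groups PRSS1 4830379 had means of 6.42 with shCtrl, 7.93 with sh1209 and 5.68 with sh1319. The summed signal of the 13 probes for markers of other cell types, PRSS1 among them, was 327 to 334, 484 to 501 and 290 to 297 there, with 2 or 3 of the 8 genes detected. Over the MIA PaCa-2 arrays it was 248 to 269. The probes other than those of PRSS1 and PECAM1 had Capan-1 means of at most 4.53, so the sum is no separate measure from PRSS1. The part of these marker levels in the CDKN1A levels was not tested. CDKN1A 5290475 lay between 4.20 and 4.73 and was above background on 1 array, sh1319 replicate 2 of MIA PaCa-2.

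CDKN1B encodes p27, whose amount is known to be set largely by protein breakdown. CDKN1B 130309 read 7.93 and 7.96 with shCtrl, 8.46 and 8.27 with sh1209 and 7.99 and 8.16 with sh1319 in MIA PaCa-2. It rose with sh1209 by 0.42 (SE 0.12, adjusted p = 0.037), a call lost with array weights, with median scaling, with 1 cell line in the fit and without either shCtrl array or sh1209 replicate 1 of that line (0.32 to 0.44). CDKN1B 1030348 was higher than shCtrl on all 4 FAK hairpin arrays of MIA PaCa-2 (8.34 to 8.51 against at most 8.10), and its differences of 0.37 and 0.36 did not pass (adjusted p = 0.15 and 0.13). In Capan-1 neither CDKN1B probe passed with either hairpin, with differences of -0.24 to 0.19. CDKN1C (p57) 5890653 lay between 4.30 and 5.17, was above background on 7 of the 12 arrays and passed in no comparison.

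CDKN2B, the INK4 inhibitor p15, was at the edge of detection. CDKN2B 620487 and 1500338 were above background on none of the 12 arrays, with levels of 4.17 to 4.51. CDKN2B 7610735 lay between 4.34 and 4.86 and was above background on 3 arrays. Its differences from shCtrl, -0.26 to -0.05, did not pass in any pair.

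With shCtrl, the cell lines themselves differed at 8 of the 15 probes, where 42.1% of all tested probes were called. MIA PaCa-2 had 0.0719 of the CDKN1A level of Capan-1 (log2 difference -3.80, SE 0.12, adjusted p = 2.2e-10). CDK6 (-1.14, adjusted p = 4.4e-06), CCND3 (-0.74, adjusted p = 0.00015) and CCND1 were also lower in MIA PaCa-2 (-0.29, adjusted p = 0.04997, lost with median scaling, array weights and the replicate block, and without any 1 of the 12 arrays, -0.33 to -0.25). CCNE1 was higher in MIA PaCa-2, by 1.20 at 870497, 0.94 at 3990026 and 0.63 at 2070131 (adjusted p at most 0.00082), as was CDKN1B 130309, by 0.52 (adjusted p = 0.0051). The differences at CCNE1 2070131 and CDKN1B 130309 were lost with median scaling (0.39 and 0.38). Puromycin dose and cell line cannot be told apart here.

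The response to knockdown, averaged over the hairpins, differed between the lines at 5 of the 15 probes, against 14.4% of all probes. CCND2 3460520 passed with a higher response in MIA PaCa-2 (fitted value 2.71, adjusted p = 7.5e-07). That value is no measured size, because the probe was above background on no array of the shCtrl group of MIA PaCa-2 or of the Capan-1 groups. The same holds for its values in the comparisons between the lines below. It was lower in MIA PaCa-2 at CDK6 (-1.77, adjusted p = 5.8e-06), CCND3 (-0.74, adjusted p = 0.0033), CCND1 (-0.73, adjusted p = 0.0034) and CDKN1A (-0.51, adjusted p = 0.039). Without background correction the value for CDK6 was -0.87 and that for CCND2 3460520 was 1.26. The value for CDKN1A was lost with median scaling and without each of 9 arrays, all but sh1209 replicate 1 and sh1319 replicate 1 of MIA PaCa-2 and sh1319 replicate 2 of Capan-1 (-0.53 to -0.45). With averaged replicates none of the 5 passed, and 3 of the 15 members had an unadjusted p under 0.05. None of all tested probes passed there either, and 1087 had an unadjusted p under 0.05. CCNE1 fell in both lines, and its response differed by -0.45 to -0.03 at the 3 brighter probes, which did not pass.

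Comparisons of the response to each hairpin alone were added after the values had been seen. For sh1209, 8 of the 15 probes differed between the lines, against 14.8% of all probes, and CDKN1A was among them, with a lower response in MIA PaCa-2 (-1.49, SE 0.17, adjusted p = 0.00014). CDK6 (-1.91), CCND2 3460520 (1.94), CCND3 (-0.95), CCNE1 870497 (-0.82) and 3990026 (-0.77), CDK4 (0.62) and CCND1 (-0.57) were the others, and the last 2 were lost with median scaling. For sh1319 there were 4, against 14.0%: CCND2 3460520 (3.47), CDK6 (-1.63), CCND1 (-0.90) and CCND3 (-0.54, lost without each of 10 arrays, all but the sh1209 arrays of MIA PaCa-2, -0.60 to -0.48). With median scaling CCND1 (adjusted p = 0.063) and CCND3 no longer passed. CDK6, CCND2 3460520, CCND1 and CCND3 were past the threshold with each hairpin, with the shCtrl arrays shared between the hairpins. The fall of PTK2 450253 was also larger in MIA PaCa-2 (difference between the lines -1.63 with sh1209 and -0.71 with sh1319, adjusted p at most 0.014). PTK2 2680750 had values of the opposite sign, 0.77 with sh1209 (adjusted p = 0.046) and 0.17 with sh1319 (adjusted p = 0.70). The part of PTK2 in these differences was not tested.

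**Figure D3:**
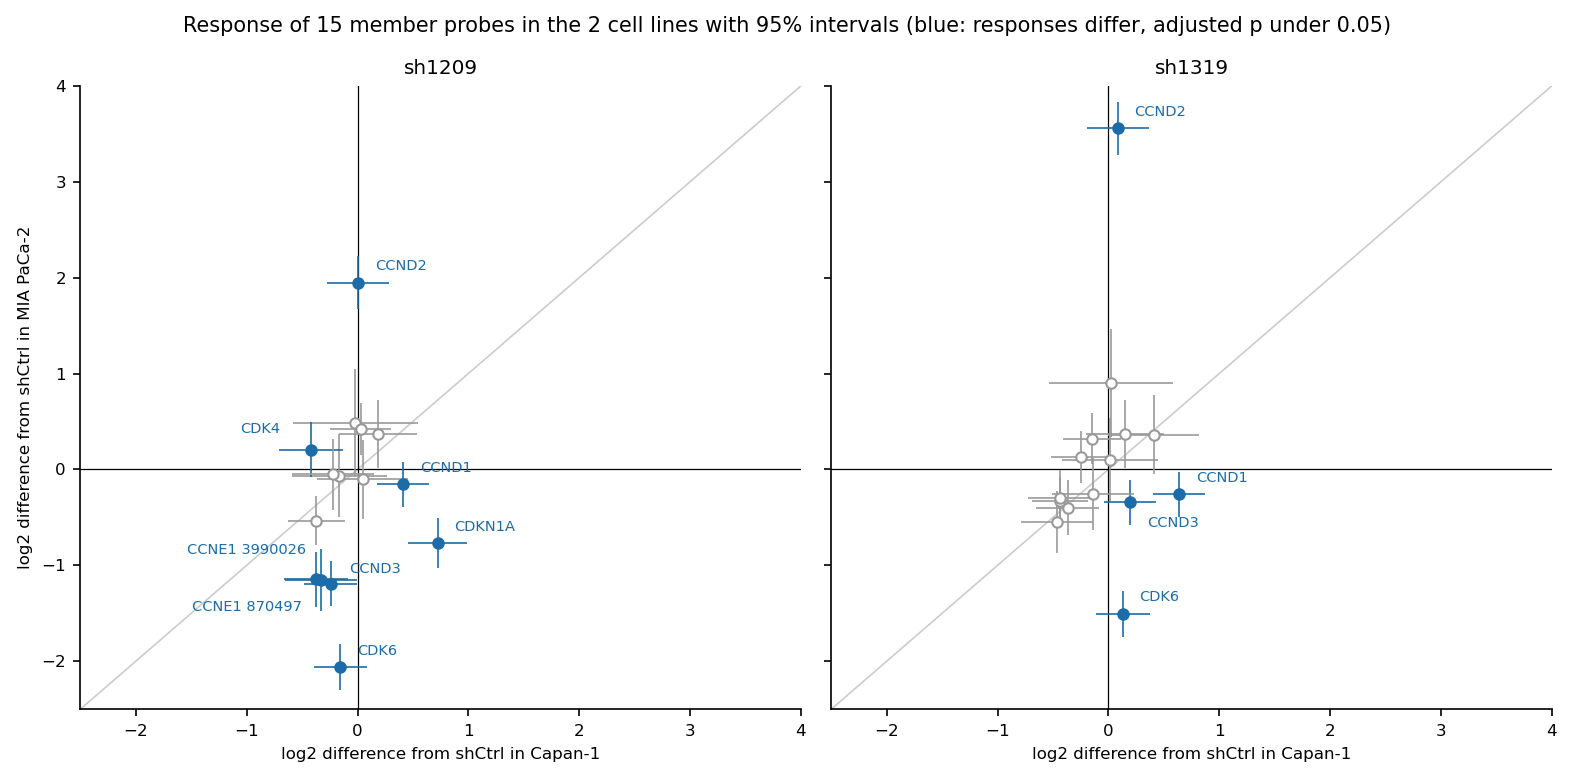
Log2 difference from shCtrl in MIA PaCa-2 (y axis) against that in Capan-1 (x axis) for the 15 tested member probes, with 95% intervals, for sh1209 (left) and sh1319 (right); the grey diagonal marks equal responses. Blue points differ between the lines at an adjusted p under 0.05: CCND2 and CDK6 lie far off the diagonal in both panels, and CDKN1A lies at -0.77 against 0.72 with sh1209.

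The FAK hairpins were also set against each other, without the shCtrl arrays. In MIA PaCa-2, 7 of the 15 probes differed, against 22.6% of all probes. With sh1319, CCND2 3460520 was 1.61 higher than with sh1209 (adjusted p = 4.3e-06), CDKN1A 1.09 higher (adjusted p = 5.4e-05), CCND3 0.85 higher (adjusted p = 0.00016) and CDK6 0.56 higher (adjusted p = 0.003, though 0.075 with median scaling). CCNE1 3990026 and 870497 were higher by 0.85 and 0.60, the latter not without replicate 2 of sh1209 or of sh1319 (0.55 to 0.57) or with 1 cell line in the fit, and CDK4 was 0.61 lower (adjusted p = 0.0054), though not with median scaling or without sh1319 replicate 1 (-0.43). In Capan-1, 2 probes differed, a share of 13.3% that is near the 11.3% of all probes. With sh1319, CDKN1A was 0.87 lower than with sh1209 (adjusted p = 0.00079), and CCND3 was 0.44 higher (adjusted p = 0.024, lost with median scaling and without any 1 of the 4 arrays compared, 0.40 to 0.47).

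CDKN1A thus differed between the hairpins in opposite directions in the lines. That difference was itself tested, in a comparison added after the values had been seen, and was 1.96 (SE 0.17, adjusted p = 2.0e-05). It was one of 5 member probes past the threshold there, against 14.4% of all probes, with CCND2 3460520 (1.53), CCNE1 3990026 (0.91) and 870497 (0.74) and CDK4 (-0.66), of which the last 2 were lost with median scaling. At PTK2 450253 the hairpins left unequal levels in Capan-1, 1.16 lower with sh1319 than with sh1209 (adjusted p = 6.2e-05). In MIA PaCa-2 they differed at this probe by 0.24 (adjusted p = 0.17). PTK2 2680750 had the other pattern. It was lower with sh1319 in MIA PaCa-2 (-0.59, adjusted p = 0.021) and alike in Capan-1 (0.0005). The part of these levels in the CDKN1A difference was not tested.

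Averaged over both hairpins and both lines, 7 of the 15 member probes were called, 1 higher and 6 lower, against 25.2% of all probes. CCND2 3460520 passed with a fitted value of 1.40, which includes Capan-1 groups where it was above background on no array. CDK6 fell by 0.90, CCND3 by 0.40 and CDK4 by 0.25 beside the 3 CCNE1 probes given above. Without background correction CDK6 was lower by a log2 difference of -0.44. CDK6 and CCND3 passed here although neither passed in Capan-1. The CDK4 value was lost without each of 10 arrays, all but sh1209 replicate 1 and sh1319 replicate 2 of MIA PaCa-2 (-0.26 to -0.20). With median scaling CCND3 (-0.31), CCNE1 2070131 (-0.24) and CDK4 (-0.14) did not pass. When the arrays of each group were first averaged, so that the hairpins alone gave the error, 0 of the 15 members passed limma's test and 4 were under 0.05 before adjustment.

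Of the other genes of the G1/S step, 25 of 26 listed genes were tested, by 37 probes. CDKN2A, the INK4 gene beside CDKN2B, was not above the filter. The gene lists used from here on were also chosen with earlier results of these data known, so their shares are descriptions and no test. Shares called over all probes in the 4 pairs, for all 3 lists below, were 18.0% (sh1209) and 24.3% (sh1319) in MIA PaCa-2, then 16.8% and 13.7% in Capan-1. The shares of these 37 probes were 29.7%, 37.8%, 40.5% and 37.8% in that order. In MIA PaCa-2, 4 of the 37 probes rose and 7 fell with sh1209 (median log2 difference 0.18), and 2 rose and 12 fell with sh1319 (median -0.18). In Capan-1, 1 rose and 14 fell with sh1209 (median -0.34), and 1 rose and 13 fell with sh1319 (median -0.26). The median over all tested probes lay between -0.01 and 0.01 in these 4 pairs. Both probes of CKS1B, a cofactor of the SKP2 ubiquitin ligase, and the probe of CCNE2, the other cyclin E, fell in all 4 pairs, and 0.525% of all tested probes did so. They are singled out here after their values were seen. CCNE2 fell by 1.54 with sh1209 and by 1.23 with sh1319 in MIA PaCa-2, and by 0.79 and 0.64 in Capan-1. SKP2, which marks p27 for breakdown, fell with sh1319 at all 3 of its probes, with differences of -2.16 to -1.06 (MIA PaCa-2) and -1.49 to -0.70 (Capan-1). With sh1209 it fell at 2 in Capan-1 (-1.18 and -0.86). In MIA PaCa-2 its 3 probes were higher with sh1209 than with shCtrl, and 1 of these rises was called. Their means went from 9.99 to 10.27, from 7.79 to 8.28 and from 5.64 to 6.22. With the same hairpin RBL2 and E2F4, which repress E2F targets in resting cells, rose in MIA PaCa-2 (0.70 each), and E2F4 fell in Capan-1 (-0.71). With median scaling 8 of the 37 fell with sh1319 in MIA PaCa-2 and the median was -0.05, and with sh1209 3 rose and 5 fell. With that scaling the counts of these 37 probes in Capan-1 were 1 higher and 1 lower with sh1209, and 1 higher and 2 lower with sh1319. Most of the falls named above for CKS1B, CCNE2 and SKP2 in Capan-1 therefore did not pass with median scaling. At most 1 of the CKS1B and CCNE2 probes can have passed in all 4 pairs with it.

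The E2F target genes, S phase genes such as TYMS, RRM2 and UHRF1, showed a like split between hairpins in MIA PaCa-2. Of their 17 probes in 13 genes, 4 rose and 1 fell with sh1209 (median -0.06), whereas 0 rose and 13 fell with sh1319 (median -0.44). With sh1319, TYMS (thymidylate synthase) fell by 2.37, UHRF1 by 1.26 and RRM2 by 1.13. UHRF1 rose by 0.80 with sh1209. In Capan-1, 1 rose and 2 fell with sh1209, and 0 rose and 3 fell with sh1319. The shares called were 29.4% and 76.5% in MIA PaCa-2, whereas in Capan-1 both were 17.6%, near the shares over all probes. With median scaling, 7 fell with sh1319 in MIA PaCa-2, and 3 rose and 0 fell with sh1209. The Capan-1 medians then turned from -0.12 to 0.07 with sh1209 and from -0.18 to 0.03 with sh1319. Set against each other in MIA PaCa-2, 11 of the 17 were lower with sh1319 than with sh1209 and 0 higher. Of all tested probes 22.6% were called there, 2705 higher and 2773 lower.

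The p53 target genes were tested by 17 probes in 12 of 14 listed genes, without MDM2 and SESN2. With sh1209 in MIA PaCa-2, where CDKN1A fell, 5 probes rose and 3 fell (median 0.06), and with sh1319, 4 rose and 1 fell (median 0.17). Both probes of GADD45A, a stress-induced growth arrest gene, rose there, by 1.58 and 1.65 with sh1209 and by 1.81 and 1.91 with sh1319. FAS, a death receptor gene, rose further with sh1319 at 1 of its 2 probes (3420026), by 2.12 from a mean of 4.58 to 6.70, with the probe above background on 1 of the 2 shCtrl arrays. In Capan-1, where CDKN1A rose with sh1209, 1 rose and 3 fell with that hairpin (median -0.04), and 0 rose and 1 fell with sh1319 (median -0.08). That 1 was GADD45A 670255, which fell by 0.73, against its rise in MIA PaCa-2. The shares called were 47.1% and 29.4% in MIA PaCa-2, the latter near the share over all probes, and 23.5% and 5.88% in Capan-1. With median scaling 3 rose and 0 fell with sh1209 in MIA PaCa-2, 4 rose and 0 fell with sh1319, and the Capan-1 medians were 0.14 and 0.06. BTG2, an antiproliferative gene, rose by 0.81 with sh1209 in Capan-1 and by 0.93 with it in MIA PaCa-2.

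**Figure D4:**
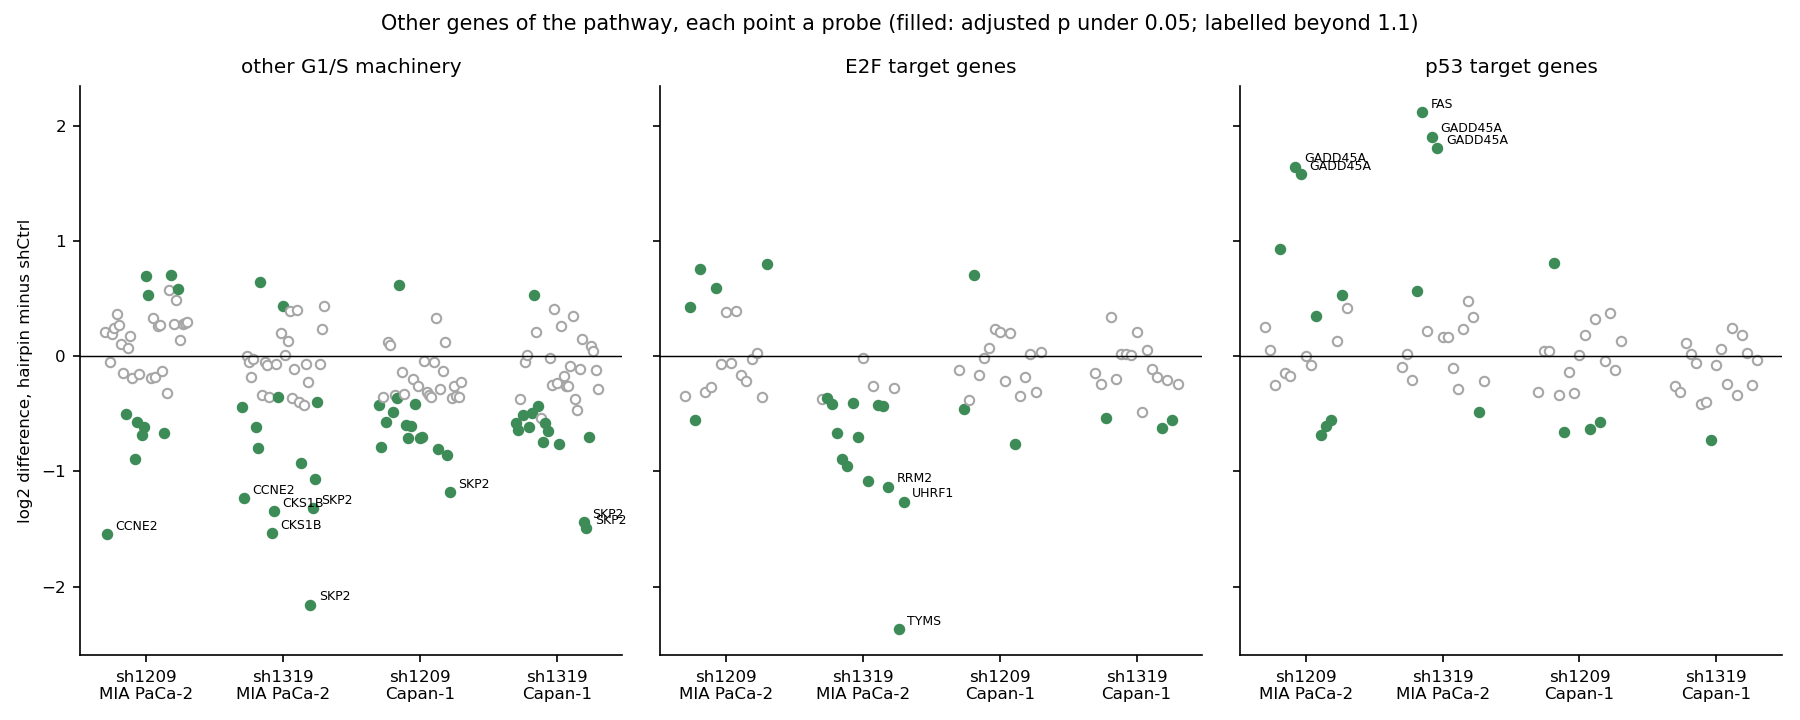
Log2 difference from shCtrl (y axis) of every tested probe of the other G1/S genes (37 probes), the E2F target genes (17) and the p53 target genes (17), by hairpin and cell line (x axis), with filled points at an adjusted p under 0.05 and names for filled points beyond 1.1 in either direction. In MIA PaCa-2 the E2F panel holds 13 filled points below 0 with sh1319 and 1 with sh1209.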

How the data were processed

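Expression was measured on 12 Illumina arrays, 2 for each of 6 groups set by the sample labels. The authors deposited, per the file headers, 1 linear, non-normalized intensity per probe and array with its detection p-value. GenomeStudio 2011.1 is named in the submitters' processing notes. The table has 47320 rows. Background was corrected with limma's nec (normexp from the detection p-values, offset 16), 92 spike-in rows were dropped, and quantile normalization and log2 followed. The 24207 of 47228 probes with a detection p under 0.05 on at least 2 arrays were tested.

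limma 3.58.1 in R 4.3.3 (lmFit, eBayes) fitted the 6 group means over all 12 arrays (6 residual degrees of freedom). Benjamini-Hochberg adjustment ran within each comparison. The number of arrays limits the precision. There were 9 comparisons, with 3 added after the values were seen: the cell line difference in the response to each hairpin and of the difference between hairpins. The members and the gene lists were chosen with earlier results of these data known. Named genes are all member probes, PTK2 and, from each list, at most 4 genes per comparison, out of those with the largest difference among called probes. Genes called in all 4 pairs are named beyond that. "At least" folds use, as the level of the dim group, the lowest normalized value of any detected probe on that array where no array of a group detected the probe.

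Alternatives tried were median scaling, raw intensities without background correction, testing every probe, a stricter filter, a replicate block, array weights, leaving out single arrays, 1 cell line in the fit, the methods' t-test and averaged replicates. Promoter windows are those of RefSeq for GRCh38.p14.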

Additional observations from a re-analysis of the deposited data

Results flagged for a closer look

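The difference between the cell lines in the response to knockdown was itself tested (limma, MIA PaCa-2 minus Capan-1, log2) and passed at 5 member probes when averaged over hairpins. CCND2 3460520 was above background on no Capan-1 array and no shCtrl array, so its values here are fitted values and no measured sizes. The values were -0.73 for CCND1, 2.71 for CCND2 3460520, -0.74 for CCND3, -1.77 for CDK6 and -0.51 for CDKN1A. With sh1209 alone it passed at CCND1 (-0.57), CCND2 3460520 (1.94), CCND3 (-0.95), CCNE1 3990026 (-0.77), CCNE1 870497 (-0.82), CDK4 (0.62), CDK6 (-1.91) and CDKN1A (-1.49). With sh1319 alone it passed at CCND1 (-0.90), CCND2 3460520 (3.47), CCND3 (-0.54) and CDK6 (-1.63).

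The difference between sh1319 and sh1209 also depended on the cell line. The change of that difference was 1.53 at CCND2 3460520, 0.91 at CCNE1 3990026, 0.74 at CCNE1 870497, -0.66 at CDK4 and 1.96 at CDKN1A. Leaving out single arrays ended the calls for CDK4 (9 of 12 arrays, -0.72 to -0.48) and CCNE1 870497 (10 of 12, 0.66 to 0.82) in this comparison. In the response to sh1209 they ended those for CDK4 (10 of 12, 0.56 to 0.69), CCND1 (5 of 12, -0.59 to -0.51), CCNE1 870497 (5 of 12, -0.84 to -0.59) and CCNE1 3990026 (3 of 12, -0.74 to -0.62).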

How the results depend on the processing

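Over 3417 values of single member probes under an alternative, 3048 kept their direction and their side of the threshold, 230 kept the direction and no longer passed, 44 newly passed, 95 that passed under neither setting changed sign and 0 called values were reversed. The differences of CDK6 and CCND2 3460520 between each hairpin and shCtrl in MIA PaCa-2 passed under every alternative run but the methods' t-test, though without background correction the values were less than those reported by over 1.5 times. CCND2 3460520 met the filter only through the groups where it was high, so its passing is no separate support.

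The methods' t-test, with 2 residual degrees of freedom, called 0 members in each comparison of 2 groups but that of the cell lines with shCtrl, where it called 5 against 8. In the former it called at most 4 of all tested probes, and in the latter 3905. Averaged replicates called 0 for both hairpins in both cell lines and 0 for the interaction, and 0 of all tested probes in either. Median scaling gave 3 against 6 for sh1319 in MIA PaCa-2. In Capan-1 it gave 1 against 4 for sh1209, 1 against 2 for sh1319 and 1 against 2 for sh1319 minus sh1209. For the cell lines it gave 5 against 8. Over all 24207 tested probes it gave, in the same order, 3846 against 5887, 2459 against 4074 and 2270 against 3322. For sh1319 minus sh1209 in Capan-1 it gave 1217 against 2730, and for the cell lines 7761 against 10187. With this scaling the members called with sh1209 and with sh1319 in Capan-1 were a lower share than that of all probes. In the other comparisons named here they were a higher share. Median scaling moved the median of all tested probes by 0.11 for sh1319 in Capan-1 and by under 0.1 elsewhere. Without background correction the counts were 11 for sh1319 in MIA PaCa-2, 4 for sh1319 in Capan-1 and 4 for sh1319 minus sh1209 in Capan-1. Array weights and the stricter filter each gave 4 for sh1319 in Capan-1, and a fit of 1 cell line gave 2 for sh1319 in MIA PaCa-2. Calls over all probes are given here only for median scaling, the methods' t-test and averaged replicates. Counts under the other settings, here and below, therefore stand beside no share of all probes. The causes were not tested.

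Leaving out 1 array at a time, with a lone array assumed to vary like the other groups, gave in MIA PaCa-2 7 to 8 calls with sh1209 and 3 to 5 with sh1319, in Capan-1 1 to 3 with sh1209 and 1 to 3 with sh1319, 6 to 7 for both hairpins in both cell lines, 6 to 8 and 1 to 2 for sh1319 minus sh1209 in MIA PaCa-2 and Capan-1, 7 to 8 for the cell lines and 4 to 5 for the interaction.

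With the replicate block the counts were, in MIA PaCa-2, 8 with sh1209 and 6 with sh1319, in Capan-1, 3 with sh1209 and 2 with sh1319, 8 for both hairpins in both cell lines, 7 and 2 for sh1319 minus sh1209 in MIA PaCa-2 and Capan-1, 7 for the cell lines and 5 for the interaction. Deviations of same-numbered arrays correlated at -0.061 to 0.160 over 15 pairs of groups, with 1 over 0.1, so the numbers were not taken to pair arrays. The split of calls over all probes under median scaling stands in the report for the 4 pairs. It was 78.0% higher against 49.6% for both hairpins in both cell lines, 65.3% against 49.4% for sh1319 minus sh1209 in MIA PaCa-2 and 31.7% against 50.4% for the interaction. For the added comparisons it was 26.1% against 49.9% for sh1209, 40.9% against 50.8% for sh1319 and 68.5% against 52.8% for the difference between hairpins. Dim probes (CCND2 1570348, CCNE1 6590093, CDKN1C, CDKN2B) lay near background, where changes are understated.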
